A study of Oryza sativa with 12 samples.

Results

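Photosystem I of rice leaves is served by 4 major light-harvesting proteins, LHCA1 to LHCA4, and the transcripts of their loci were measured in 12 leaf RNA libraries. The members were set by locus identifier, with earlier results of these data known. LHCA1 is LOC_Os06g21590 on chromosome 6, LHCA2 is LOC_Os07g38960 on chromosome 7, LHCA3 is LOC_Os02g10390 on chromosome 2 and LHCA4 is LOC_Os08g33820 on chromosome 8. They are 4 of the 55986 entries in each count file, and all 4 passed the filter on low counts. The files hold identifiers without names, so each name is an assignment to the locus that was measured.

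The plants were rice (Oryza sativa) of IAPAR9, an upland cultivar, used either as wild type or as the mutant idr1-1, which carries the IAPAR9 label as well. The idr1-1 lesion is known to lie in RGA1, which encodes a G protein alpha subunit. Plants aged 5 weeks in concrete tanks were kept unstressed (control) or dried until the soil held 10% moisture (drought). Every one of these 4 groups had 3 biological replicates, and the mutant is represented by a single allele. The labels name leaf as the tissue, while the extraction note speaks of seedlings.

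Antenna proteins bind chlorophyll and carotenoids and pass absorbed light energy to a photosystem's reaction centre. Around plant photosystem I, as seen in pea and maize structures, they form a crescent in which LHCA1 pairs with LHCA4 and LHCA2 with LHCA3. In Arabidopsis, LHCA3 and LHCA4 hold the chlorophylls that absorb at the longest wavelengths. The proteins are encoded in the nucleus and imported into the chloroplast, and their transcripts follow light and the circadian clock.

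Library totals ran from 19100254 to 25109639 counts. RGA1 (LOC_Os05g26890) was at 28.6 ± 3.10 and 25.3 ± 1.49 CPM (read counts relative to library size, with TMM scaling between libraries; mean ± SD, n = 3 throughout) in wild type control and drought, and at 11.9 ± 0.699 and 12.5 ± 1.55 in idr1-1 (log2 -1.27 and -1.02, adjusted p = 5e-04 and 0.0053 by edgeR). As for tissue, the leaf marker RCA, Rubisco activase, lay at 1965 CPM or more in every library, OSH1 of the shoot apex had 1 count in all, and LSI1, a root silicon transporter, lay at 3.94 to 20.3 CPM. Some markers moved with treatment. Of 3 leaf loci RCA alone passed, rising by 1.62 in wild type and 1.41 in idr1-1 on the log2 scale, while RBCS-C and RBCS-A, Rubisco small subunits, had -0.53 and -0.15 in wild type and 0.13 and 0.21 in idr1-1. The summed level of the leaf list was 14726 to 16391 CPM in wild type control and 13665 to 17399 in drought, and 10274 to 15745 and 11659 to 25062 in idr1-1. Of 2 root loci LOC_Os06g12310 fell in both genotypes (-2.31 and -1.91), and the list's sum went from 63.8 to 126 CPM in wild type control to 20.8 to 28.2 in drought, and from 68.9 to 102 to 17.1 to 42.6 in idr1-1. Of 2 inflorescence loci MADS14 fell in both genotypes and MADS1 in wild type (a call lost without any 1 of 4 libraries), from list sums of at most 4.20 CPM. PCNA, of dividing cells, fell in idr1-1 by 0.33, a call lost in 7 other fits. The part of these markers in the LHCA results was not tested. In drought-stressed idr1-1, replicate 3 stood apart. It correlated across genes (Pearson r of log2 CPM) at 0.966 and 0.951 with its own replicates and at 0.961 to 0.970 with the wild type drought libraries. Replicates of the other groups correlated at 0.983 to 0.988. Test results that rest on this library are given with and without it. Group means, spreads and correlations between loci were computed on all 12 libraries only. In bulk leaf RNA, fewer cells of a type and less RNA per cell cannot be told apart.

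All 4 loci were abundant in every library, with 64255 to 206329 counts each, so that counting error was at most 0.394% of a value and the spread between replicates set the precision. Together they took between 1.85% and 2.63% of all counts in a library. In wild type the mean share was 2.13% ± 0.249 in control and 2.17% ± 0.198 in drought, and in idr1-1 it was 2.17% ± 0.0789 and 2.51% ± 0.154. The highest shares, 2.63% and 2.57%, were those of idr1-1 drought replicates 1 and 2. Transcript lengths were not used here, so levels are compared between groups for 1 locus at a time, not between loci.

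LHCA1, a partner in the LHCA1 and LHCA4 pair, lay at 7099, 7910 and 5975 CPM in wild type control replicates 1, 2 and 3 and at 7066, 5519 and 7806 CPM in wild type drought. In idr1-1 its levels were 7932, 7615 and 8121 CPM in control and 10207, 9437 and 6929 CPM in drought. Control and drought overlapped in both genotypes. The highest values were idr1-1 drought replicates 1 and 2, while replicate 3 of that group lay below every idr1-1 control library. Ordered by mean, the groups ran from wild type drought (6797 ± 1167 CPM) through wild type control (6995 ± 972) and idr1-1 control (7890 ± 256) to idr1-1 drought (8858 ± 1714), and no neighbours in this order differed beyond their spread.

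LHCA4, its partner, lay at 5996, 6431 and 4764 CPM in wild type control and at 4877, 4487 and 5459 CPM in wild type drought. The idr1-1 values were 6124, 5821 and 5582 CPM in control and 6417, 6575 and 5230 CPM in drought. Control and drought again overlapped within each genotype, while wild type drought lay wholly below idr1-1 control. Those groups differ in both genotype and treatment, and the share of all genes separated in this way was not computed. The group means ran from 4941 ± 489 CPM in wild type drought through 5730 ± 865 in wild type control and 5843 ± 272 in idr1-1 control to 6074 ± 736 in idr1-1 drought. This is the same order of groups as for LHCA1.

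LHCA2, of the other pair, had its control libraries below its drought libraries in both genotypes. It lay at 3677, 4066 and 3103 CPM in wild type control and at 4398, 4088 and 5220 CPM in wild type drought. In idr1-1 the control values were 3749, 3874 and 3824 CPM and the drought values 6162, 5911 and 3913 CPM. The gaps were narrow: wild type drought replicate 2 was just above the highest wild type control library, and idr1-1 drought replicate 3 just above the highest idr1-1 control library.

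LHCA3, its partner, was also higher in every drought library than in any control library of the same genotype. Its levels were 4364, 4606 and 3328 CPM in wild type control against 5468, 4896 and 5702 CPM in wild type drought. The idr1-1 values were 4583, 4366 and 4471 CPM in control and 6766, 6807 and 4991 CPM in drought. For LHCA2 and LHCA3 alike the order of group means was wild type control (3615 ± 485 and 4100 ± 679 CPM), idr1-1 control (3815 ± 62.7 and 4473 ± 108), wild type drought (4569 ± 585 and 5355 ± 415) and idr1-1 drought (5329 ± 1232 and 6188 ± 1037). In these orders idr1-1 control and wild type drought did not overlap (the share of all genes was not computed), while neighbours of the same treatment did. Groups were thus neighbours by treatment for these loci and by genotype for LHCA1 and LHCA4. Of all 22833 genes tested, 30.2% had drought libraries wholly above control in wild type and 21.3% in idr1-1, so that separation of treatments within a genotype was common.

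**Figure D1:**
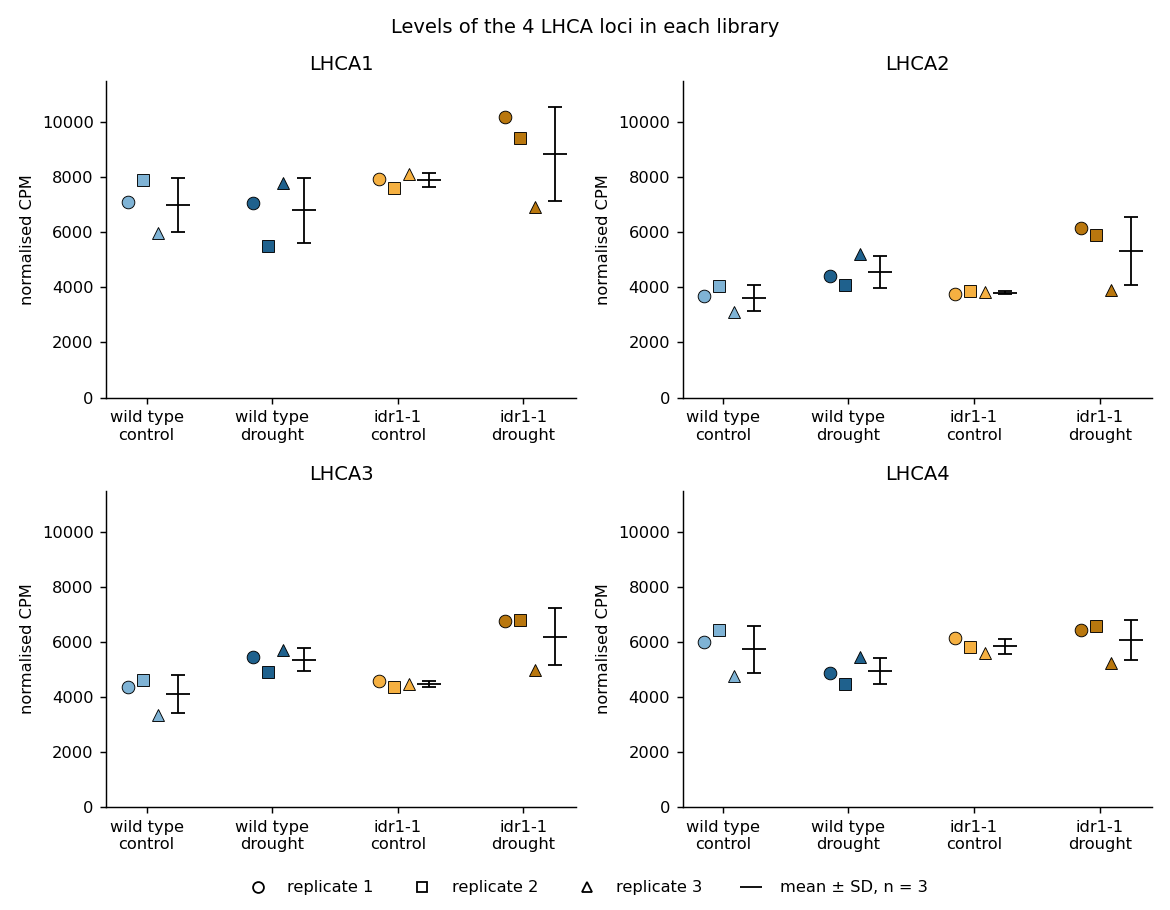
Normalised CPM of each LHCA locus (vertical axes, from 0) in the 12 libraries by group; symbols mark replicates 1 to 3 and bars the mean ± SD of 3. Drought libraries of LHCA2 and LHCA3 lie above the controls of their genotype, those of LHCA1 and LHCA4 overlap them, and replicate 3 of idr1-1 drought lies below its own replicates 1 and 2 for all 4 loci with this TMM scaling (not for LHCA4 with library size alone).

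The spread between replicates differed by group. In idr1-1 control the coefficient of variation was 1.64% to 4.65% over the 4 loci. It was 13.4% to 16.6% in wild type control, 7.74% to 17.2% in wild type drought and 12.1% to 23.1% in idr1-1 drought. This order depended on the scaling: with library size alone the ranges were 2.05% to 7.13% in idr1-1 control, 10.2% to 14.0% in wild type control, 5.78% to 14.7% in wild type drought and 1.61% to 12.1% in idr1-1 drought, where the TMM factors were 0.89, 0.897 and 1.111. Wild type control replicate 3 was the lowest of its group for all 4 loci, as was wild type drought replicate 2, under either scaling. Replicate 3 of idr1-1 drought was the lowest of its group for all 4 loci with TMM, and for LHCA1, LHCA2 and LHCA3 with library size alone, where LHCA4 lay between 5705 and 5892 CPM and replicate 1 was the lowest.

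The first comparison asks whether drought changed these transcripts. In wild type 0 of 4 loci passed the quasi-likelihood test of edgeR at an adjusted p of 0.05 (Benjamini-Hochberg, over all genes), where 43.9% of all tested genes did (22.4% higher and 21.5% lower). Fold changes, given as log2 with a 95% interval, were -0.04 for LHCA1 (-0.53 to 0.45, adjusted p = 0.90) and -0.21 for LHCA4 (-0.63 to 0.20, adjusted p = 0.39). LHCA2 was at 0.34 (-0.12 to 0.80, adjusted p = 0.21) and LHCA3 at 0.39 (-0.04 to 0.82, adjusted p = 0.13). On the linear scale the LHCA3 interval reaches from 0.970-fold to 1.76-fold. At an unadjusted p under 0.05 the count was 0 of 4 as well, beside 11828 of all 22833 tested genes. DESeq2 called 1, LHCA3 (adjusted p = 0.028), where it called 18.9% of all genes as higher.

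In idr1-1, 0 of 4 loci passed, against 35.6% of all tested genes (18% higher and 17.6% lower). At an unadjusted p under 0.05 there were 2 of 4 loci, beside 10234 of all 22833 tested genes. These were LHCA2 at 0.48 (0.02 to 0.94, adjusted p = 0.095) and LHCA3 at 0.47 (0.04 to 0.90, adjusted p = 0.085). DESeq2 called both as higher (adjusted p = 0.019 and 0.0066), as it did 15.7% of all genes. LHCA1 was at 0.17 (-0.32 to 0.66, adjusted p = 0.60) and LHCA4 at 0.06 (-0.36 to 0.47, adjusted p = 0.84).

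Whether LHCA2 and LHCA3 passed depended on the tool, on the scaling and on 1 library. With library size alone edgeR called both as higher in idr1-1 (lowest adjusted p = 0.026), beside 3346 of all 22833 genes. In wild type it called 0 of 4 there (lowest adjusted p = 0.057), beside 4029 genes called as higher. Without idr1-1 drought replicate 3, LHCA2 and LHCA3 passed edgeR's test as higher under drought in both genotypes. In wild type the fold changes stayed at 0.34 (SE 0.12, adjusted p = 0.038) and 0.39 (SE 0.13, adjusted p = 0.023), with smaller errors because the 4 groups share 1 estimate of the spread. In idr1-1 they were 0.66 (SE 0.14, adjusted p = 0.0029) and 0.60 (SE 0.14, adjusted p = 0.0058), that is 1.58-fold and 1.51-fold. The share of all genes called as higher in that fit was 25.7% in wild type and 18.4% in idr1-1. LHCA1 and LHCA4 did not pass without this library either, with adjusted p = 0.84 and 0.18 in wild type and 0.15 and 0.45 in idr1-1. The edgeR fit of the wild type libraries alone also lacks this library, and there 0 of 4 passed (lowest adjusted p = 0.071). It called 11179 of 22153 genes. In the fit of the idr1-1 libraries alone 0 of 4 passed (lowest adjusted p = 0.21), beside 5580 of 21703 genes.

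**Figure D2:**
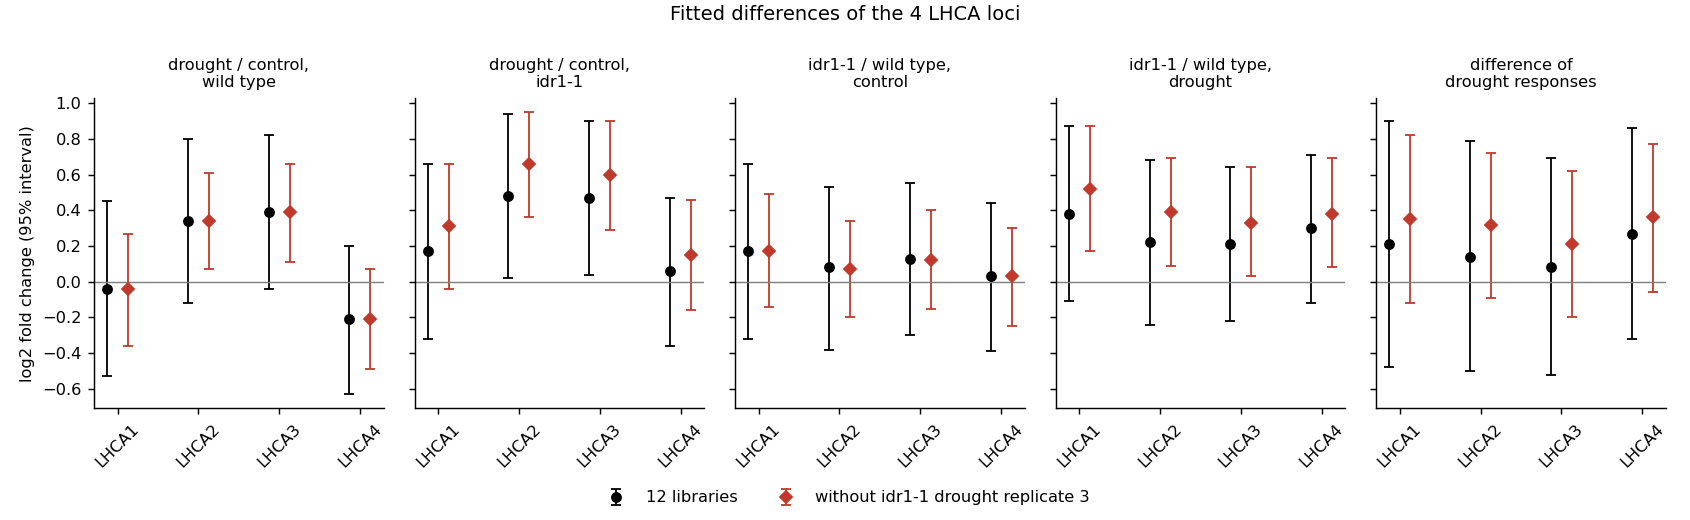
Log2 fold changes of the 4 loci (vertical axis) in the 5 comparisons, with 95% intervals, from the fit of all 12 libraries (black circles) and without idr1-1 drought replicate 3 (red diamonds). LHCA2 and LHCA3 are at 0.34 and 0.39 in wild type in both fits, and in wild type their intervals lie above 0 only where that library is left out.

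The second comparison asks whether the genotypes differed. In control leaves the fold changes of idr1-1 against wild type were small, between 0.03 (LHCA4) and 0.17 (LHCA1). Of the 4 loci 0 passed edgeR's test (adjusted p = 0.65 to 0.94), against 10.5% of genes called (5.54% as higher). An unadjusted p under 0.05 was seen for 0 of 4 and for 6562 of all 22833 tested genes. The 95% interval of LHCA1, -0.32 to 0.66, and that of LHCA4, -0.39 to 0.44, give the range of differences compatible with these replicates. DESeq2 called 0 of 4.

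Under drought all 4 loci had a higher mean in idr1-1, by 0.38 for LHCA1 (-0.11 to 0.87), 0.22 for LHCA2 (-0.24 to 0.68), 0.21 for LHCA3 (-0.22 to 0.64) and 0.30 for LHCA4 (-0.12 to 0.71). None passed (adjusted p = 0.49 to 0.69), in a comparison that called 0.184% of all genes, and the groups overlapped for every locus. At an unadjusted p under 0.05 there were 0 of 4, beside 3113 of all 22833 tested genes. With library size alone the idr1-1 libraries lay wholly above wild type for LHCA1 and LHCA4, as they did for 4.34% of all genes, and overlapped for LHCA2 and LHCA3; 0 of 4 passed there too. Without idr1-1 drought replicate 3 the values were 0.52, 0.39, 0.33 and 0.38. There all 4 had an unadjusted p under 0.05 by edgeR (0.0071, 0.015, 0.036 and 0.019), as had 5302 of all 23197 genes tested in that fit. After adjustment 0 passed (adjusted p = 0.083, 0.12, 0.18 and 0.13). DESeq2 called 0 of 4 on all libraries, with 2 at an unadjusted p under 0.05, as were 3161 genes over the whole set.

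No difference between the genotypes' drought responses passed its own test, edgeR's interaction term. It gave 0.21, 0.14, 0.08 and 0.27 for LHCA1 to LHCA4 (adjusted p = 0.69 to 0.93), with 0.0482% of all genes called. At an unadjusted p under 0.05 there were 0 of 4 loci and 3540 of all 22833 tested genes. The interval was widest for LHCA1, from -0.48 to 0.90.

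Within a library the loci can be set against each other with no scaling between libraries. The count of LHCA1 plus LHCA4 divided by that of LHCA2 plus LHCA3, the 2 pairs of the crescent, was 1.63, 1.65 and 1.67 in wild type control and 1.69, 1.63 and 1.65 in idr1-1 control. Under drought it was 1.21, 1.11 and 1.21 in wild type and 1.29, 1.26 and 1.37 in idr1-1. All 6 drought libraries lay below all 6 control libraries, idr1-1 drought replicate 3 included. The means were 1.65 ± 0.0209 and 1.18 ± 0.0571 in wild type and 1.66 ± 0.0285 and 1.3 ± 0.0554 in idr1-1. Set against LHCA2 plus LHCA3 in the same way, 44.5% of all other tested genes were wholly lower under drought in wild type and 44.7% in idr1-1, so the separation was common. Under drought the ratio of the pairs was higher in every idr1-1 library than in any wild type library, which held for 1.7% of other genes set against LHCA2 plus LHCA3. This ratio was chosen after the values were seen and is a description with no test.

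The 4 ratios that cross the pairs all separated control from drought in both genotypes. LHCA3 to LHCA4 went from 0.728, 0.716 and 0.699 in wild type control to 1.12, 1.09 and 1.04 in wild type drought. In idr1-1 it went from 0.748, 0.750 and 0.801 to 1.05, 1.04 and 0.954. LHCA2 to LHCA4 went from a mean of 0.632 ± 0.0190 to 0.923 ± 0.0291 in wild type and from 0.654 ± 0.0377 to 0.869 ± 0.109 in idr1-1. Among all other tested genes, the ratio to LHCA4 was wholly higher under drought for 32.7% in wild type and 17.2% in idr1-1. LHCA1 to LHCA2 went from 1.93 ± 0.0103 to 1.48 ± 0.129 and from 2.07 ± 0.0890 to 1.67 ± 0.0885, and LHCA1 to LHCA3 from 1.71 ± 0.0844 to 1.26 ± 0.124 and from 1.76 ± 0.0460 to 1.43 ± 0.0699. The ratio to LHCA2 was wholly lower under drought for 41.6% of the other genes in wild type and 40.5% in idr1-1, and the ratio to LHCA3 for 46.5% and 47.4%.

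The ratios within a pair did not separate control from drought. LHCA2 to LHCA3 lay between 0.784 and 0.932 in all 12 libraries, with means of 0.886 ± 0.0449 (control) and 0.852 ± 0.0574 (drought) in wild type and of 0.853 ± 0.0346 and 0.854 ± 0.0645 in idr1-1. LHCA1 to LHCA4 was 1.18, 1.23 and 1.25 in wild type control and 1.45, 1.23 and 1.43 in wild type drought. In idr1-1 it was 1.3, 1.31 and 1.45 in control and 1.59, 1.44 and 1.32 in drought, again overlapping. Between genotypes this ratio was higher in every idr1-1 control library than in any wild type control library, as was LHCA3 to LHCA4, and as was the ratio to LHCA4 of 11.2% of all other tested genes. LHCA1 to LHCA2 was also wholly higher in idr1-1 control (10.7% of genes set against LHCA2), and LHCA1 to LHCA3 in idr1-1 drought (1.77% of genes set against LHCA3). The remaining ratios of single loci overlapped between genotypes.

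**Figure D3:**
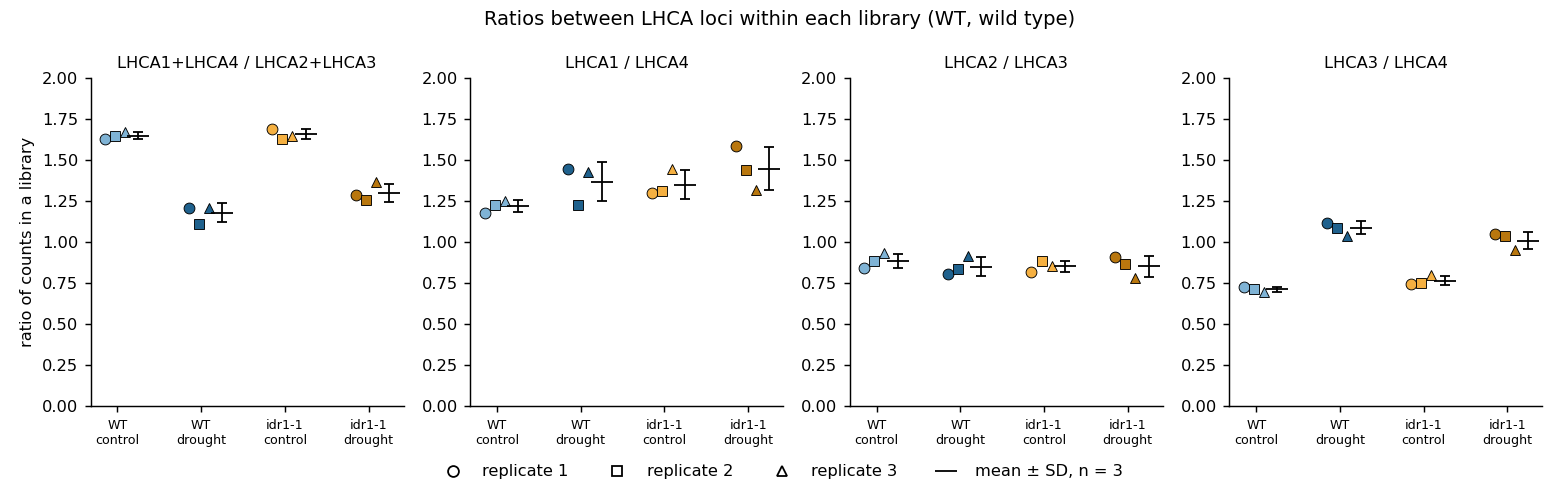
Ratios of counts between LHCA loci within each library (vertical axes, from 0) by group; symbols mark replicates and bars the mean ± SD of 3. The ratio of the LHCA1 and LHCA4 pair to the LHCA2 and LHCA3 pair lies between 1.63 and 1.69 in the 6 control libraries and between 1.11 and 1.37 in the 6 drought libraries, while LHCA2 to LHCA3 stays between 0.784 and 0.932.

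As shares of the summed LHCA counts, LHCA4 went from 28.0% ± 0.317 in wild type control to 22.9% ± 0.679 in wild type drought and LHCA3 from 20.0% ± 0.632 to 24.8% ± 1.13. In idr1-1 LHCA4 went from 26.5% ± 1.03 to 23.1% ± 1.57 and LHCA3 from 20.3% ± 0.164 to 23.4% ± 0.461. LHCA1 held 34.3% ± 0.614 and 31.2% ± 1.89 in wild type and 35.8% ± 0.957 and 33.4% ± 0.962 in idr1-1, and LHCA2 17.7% ± 0.339 and 21.1% ± 0.802 in wild type and 17.3% ± 0.564 and 20.0% ± 1.24 in idr1-1. For each of the 4 loci the control and drought shares did not overlap in either genotype. Divided by the same sum, 18.6% of all other tested genes were wholly higher and 24.8% wholly lower under drought in wild type, and 10.6% and 31.4% in idr1-1. Since shares sum to a whole, these are not 4 separate observations.

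Across the 12 libraries the loci also went up and down together within groups. After each group's mean was taken off, log2 CPM of any 2 members correlated at 0.89 to 0.96 (Pearson r, 12 libraries, which share depth and scaling). Such values were not particular to the members. LOC_Os03g56670, of the photosystem I core list below, was at 0.99 with LHCA2, and CAB1R (LOC_Os09g17740), a photosystem II antenna locus, at 0.984 with LHCA3. Other listed loci were lower, down to LOC_Os11g05552, a locus of the regulator list, at -0.428 with LHCA2 and -0.593 with LHCA4. With the group means left in, LHCA2 and LHCA3 correlated at 0.96 and LHCA1 and LHCA4 at 0.86, while LHCA2 and LHCA4 were at 0.45 and LHCA3 and LHCA4 at 0.40.

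Among all 22832 other tested genes, ranked by this correlation of levels, LHCA3 came 4th from LHCA2 and LHCA2 came 3rd from LHCA3. LHCA1 ranked 19 from LHCA4, and LHCA4 ranked 39 from LHCA1. Some loci of the lists described below ranked ahead of the partner, so this likeness was not particular to the pair. LOC_Os04g38410, of the photosystem II antenna list, ranked 13 from LHCA1 and 12 from LHCA4. LOC_Os12g23200, of the photosystem I core list, ranked 30 from LHCA1 and 14 from LHCA4. The loci most like LHCA2 were LOC_Os01g40310 (r = 0.981) and LOC_Os06g11130 (0.974), and those most like LHCA3 were LOC_Os12g08770 (0.969), which is on the photosystem I core list described next, and LOC_Os01g31690 (0.964). Those most like LHCA1 were LOC_Os02g37060 (0.954) and LOC_Os03g56670 (0.936), the latter also on the core list, and those most like LHCA4 were LOC_Os01g74660 (0.937) and LOC_Os03g45790 (0.924). LOC_Os03g45790 was scarce, at 1.67 ± 0.307 to 2.93 ± 0.877 CPM over the groups. These likenesses are descriptions over 12 libraries that share 4 groups.

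Other loci of the same apparatus were taken from lists of recalled locus assignments. A name is printed only where the gene table used here holds it on the chromosome of the locus, which was so for 22 of 41 loci. The photosystem I core list had 9 loci, 8 of them tested and 1 at 0 counts in every library. In wild type 0 of 8 passed edgeR's test for drought, where 43.9% of all tested genes did. Their median log2 fold change was 0.01, beside 0.00 over all tested genes and 0.15 for the 4 LHCA loci. PSAH (LOC_Os05g48630), a core subunit on the side where the mobile antenna of photosystem II docks, was at 1982 ± 223 and 1990 ± 162 CPM (log2 0.01, adjusted p = 0.99). In idr1-1 2 of 8 rose and 0 fell, where 18% of all tested genes rose. The median was 0.30, beside 0.32 for the LHCA loci. Those that rose were LOC_Os12g08770 by 0.77 (adjusted p = 0.041) and LOC_Os07g05480 by 0.47 (adjusted p = 0.048). Both calls were lost in several other fits, such as that of the idr1-1 libraries alone (adjusted p = 0.070 and 0.16). Without idr1-1 drought replicate 3, 6 of 8 rose in idr1-1 and 1 of 8 in wild type, beside 18.4% and 25.7% of all genes.

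On the list of photosystem II antenna proteins 7 of 8 loci were tested, and 0 passed for drought in either genotype. Of all tested genes, 43.9% passed in wild type and 35.6% in idr1-1. The medians of the 7 loci were -0.02 in wild type and 0.24 in idr1-1. CAB1R (LOC_Os09g17740) was at 0.26 (SE 0.26) in wild type and 0.22 (SE 0.26) in idr1-1, and CAB2R (LOC_Os01g41710) at -0.19 (SE 0.27) and 0.41 (SE 0.27). Without idr1-1 drought replicate 3 the count was 3 of 7 up in idr1-1 and 0 in wild type, beside 18.4% and 25.7% of all genes. Between genotypes under drought, all 15 tested loci of these 2 lists had a log2 fold change above 0, from 0.18 to 0.60, and 0 passed. Leaving out idr1-1 drought replicate 3, 1 of 8 core loci and 3 of 7 photosystem II antenna loci were called as higher in idr1-1 there, beside 2.19% of all genes and 0 of 4 LHCA loci. Both loci listed as minor LHCA proteins were scarce beside the 4 members, at 32.1 to 200 CPM in single libraries, and neither passed in any comparison on all 12 libraries. When idr1-1 drought replicate 3 was left out, 1 of them was called as lower under drought in wild type, beside 5796 of 23197 genes. The fit of the wild type libraries alone also called 1 as lower, beside 5650 of 22153 genes.

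Of 4 listed electron carriers that work beside photosystem I, 1 rose and 1 fell in each genotype, which is close to the share over all genes (22.4% higher and 21.5% lower in wild type, 18% and 17.6% in idr1-1). With idr1-1 drought replicate 3 left out, 2 rose and 1 fell in each genotype, and 1 of 4 was higher in idr1-1 under drought. The shares of all genes called higher in that fit were 25.7% in wild type, 18.4% in idr1-1 and 2.19% between genotypes under drought. Called as lower under drought were 5796 of 23197 genes in wild type and 4315 in idr1-1. ADI1 (LOC_Os08g01380), a ferredoxin, which takes electrons from photosystem I, went from 1003 ± 156 to 1796 ± 227 CPM in wild type (0.84, adjusted p = 0.034) and from 1127 ± 292 to 2378 ± 932 in idr1-1 (1.08, adjusted p = 0.013). LFNR1 (LOC_Os06g01850), the leaf ferredoxin-NADP reductase, went from 1510 ± 121 to 816 ± 109 CPM (-0.89, adjusted p = 0.0085) and from 1371 ± 188 to 860 ± 278 (-0.67, adjusted p = 0.039). PETE (LOC_Os06g01210), plastocyanin, which brings electrons to photosystem I, had 0.33 (adjusted p = 0.32) and 0.48 (adjusted p = 0.16), and passed without idr1-1 drought replicate 3 (0.33 and 0.74, adjusted p = 0.035 and 0.00091). The ADI1 and LFNR1 calls in idr1-1 were lost in the fit of the idr1-1 libraries alone (adjusted p = 0.066 and 0.13). The LFNR1 call in idr1-1 was also lost without control replicate 2 or 3 (adjusted p = 0.095 and 0.12) and with the replicate block (0.072), and the ADI1 call in wild type with the block (0.056). The ADI1 call in idr1-1 was also lost without control replicate 1 or drought replicate 1 (adjusted p = 0.052 and 0.056), and the ADI1 call in wild type without any 1 of 5 wild type libraries (control replicate 1, 2 or 3 and drought replicate 1 or 3; adjusted p = 0.057 to 0.11).

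GLK1 and GLK2 are transcription factors known to activate light-harvesting and chlorophyll synthesis genes. GLK1 (LOC_Os06g24070) rose under drought in both genotypes, from 79.7 ± 21.9 to 182 ± 8.84 CPM in wild type (1.19, SE 0.18, adjusted p = 0.00025) and from 127 ± 3.94 to 222 ± 26.9 in idr1-1 (0.80, SE 0.17, adjusted p = 0.0039). Drought libraries lay above control libraries in both. GLK2 (LOC_Os01g13740) rose in wild type, from 114 ± 25.0 to 188 ± 11.6 CPM (0.73, adjusted p = 0.0085), and had 0.45 in idr1-1 (adjusted p = 0.081; 0.022 without drought replicate 3). In control leaves GLK1 was higher in idr1-1 than in wild type by 0.67 (adjusted p = 0.036), a call lost without any 1 of 7 libraries (adjusted p = 0.051 to 0.10). Of the 4 loci on the list of antenna regulators and targeting factors, 3 rose in wild type and 2 in idr1-1, with 0 falling. Of all tested genes, 22.4% rose in wild type and 18% in idr1-1. The list's medians were 0.96 and 0.62. The other locus that rose in both, LOC_Os03g03990, had 1.2 (adjusted p = 0.00063) and 0.82 (adjusted p = 0.0073). In control leaves 2 of these 4, GLK1 and LOC_Os03g03990, were higher in idr1-1, beside 5.54% of all genes. The LOC_Os03g03990 call there (0.75, adjusted p = 0.040) was lost with the replicate block (0.076) and without any 1 of 6 libraries (adjusted p = 0.052 to 0.14). The core and photosystem II antenna lists had 0 of 8 and 0 of 7 in control leaves, and the difference between the lists was not tested.

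**Figure D4:**
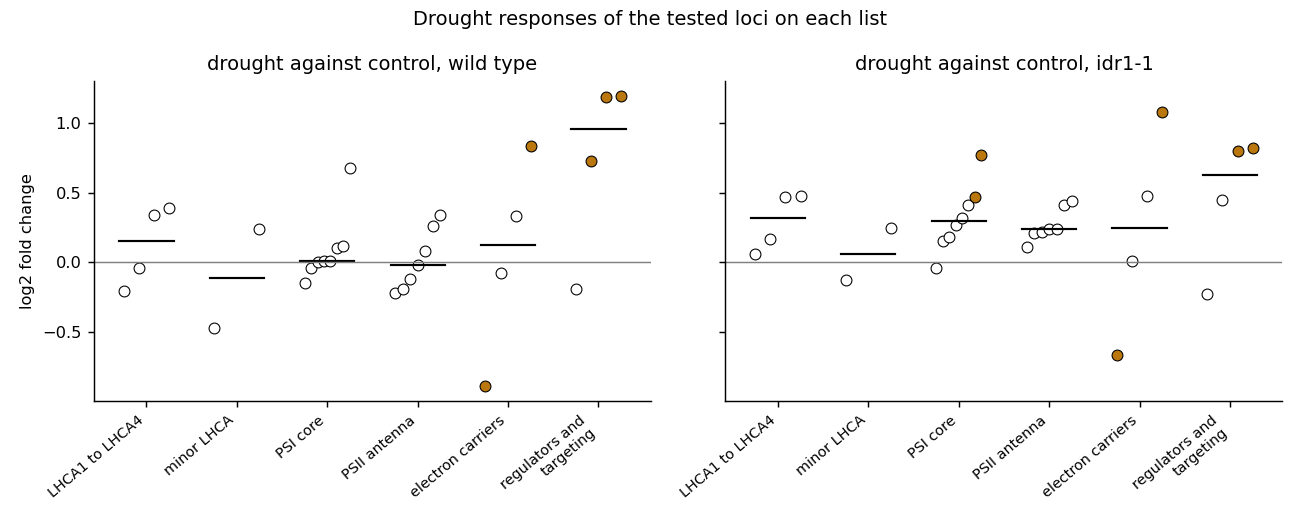
Log2 fold changes under drought (vertical axis) of each tested locus on the 6 lists, in wild type (left) and idr1-1 (right); filled points passed edgeR's test, open points did not, and lines are medians. The LHCA members have medians of 0.15 and 0.32, and the list of regulators and targeting factors 0.96 and 0.62.

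Clock transcripts differed between control and drought beside these results. LHY (LOC_Os08g06110), a morning factor, went from 12.6 ± 3.39 to 64.2 ± 9.34 CPM in wild type and from 14.4 ± 2.15 to 42.7 ± 11.9 in idr1-1 (2.35 and 1.57, adjusted p = 1.8e-05 and 0.00039 by edgeR). PCL1 (LOC_Os01g74020), an evening factor, went from 241 ± 87.9 to 8.86 ± 3.64 and from 174 ± 36.0 to 7.51 ± 3.49. Of the 4 listed clock loci 1 rose and 3 fell in each genotype. Of all tested genes, 22.4% rose and 21.5% fell in wild type, and 18% and 17.6% in idr1-1. In idr1-1 drought replicate 3, LHY was at 29.0 CPM, the lowest of the drought libraries. Across the 12 libraries LHY correlated at 0.74 with LHCA2 and 0.79 with LHCA3, and at 0.11 with LHCA1 and -0.20 with LHCA4. With group means taken off, these were 0.70, 0.76, 0.54 and 0.62. The 3 clock loci that fell, PCL1, PRR1 (LOC_Os02g40510) and PRR95 (LOC_Os09g36220), had the opposite sign with LHCA2 and LHCA3. They correlated at -0.622, -0.604 and -0.545 with LHCA2 and at -0.737, -0.7 and -0.658 with LHCA3. Their values were -0.067 to 0.012 with LHCA1 and 0.234 to 0.313 with LHCA4. With group means taken off, all 3 were positive with every member, at 0.633, 0.744 and 0.827 with LHCA2. The part of the hour of harvest in the LHCA results was not tested.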

How the data were processed

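Leaf messenger RNA was sequenced in 12 libraries. The deposited values are estimated counts per locus, not scaled to depth, 1 file per library; 13.8% of nonzero values were not whole, among them 29 of the 48 LHCA values, by counting options that the sources do not describe, and values of near-identical or overlapping genes are uncertain. Per the submitters' processing notes, the tools were HISAT2 2.1.0 and featureCounts 1.6.3. The build, annotation and strand setting: not given in the sources used here. Values were rounded to whole counts (a library total changed by at most 0.00113%). In R 4.3.3, edgeR 4.0.16 was run over all 12 libraries with 1 mean per group: 22833 genes passed filterByExpr, libraries were scaled by TMM, and quasi-likelihood tests were adjusted by Benjamini-Hochberg over all genes (threshold 0.05). Each standard error is the size of the log2 fold change divided by the root of F. The steps were tested on simulated data. Log2 CPM for correlations used a prior count of 2. Alternatives were DESeq2 1.42.0, other scalings, no filter, fewer groups, the replicate number as a block, and each library left out. No pair of replicates was a duplicate (chi-square per gene 8.20 or more). The labels call replicates biological and name no batch or shared source.

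The members and lists were chosen with earlier results of these data known, and the ratios of pairs after their values were seen. Named genes are the 4 members, listed loci by counts with those the results turn on, and the 2 genes most like each member by correlation. None of the 55801 LOC_Os identifiers (0) was found in the gene table (ASM3414082v1), which also held none of the 4 LHCA names. It held the listed name on the same chromosome for 22 of 41 other loci and on another chromosome for 2. Sequences of the members were not used here.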

Additional observations from a re-analysis of the deposited data

How the results depend on the processing

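With a library left out, 229 fold changes of the 4 loci kept their direction and side of the threshold, 4 newly passed (all without idr1-1 drought replicate 3) and 7 turned sign. Under the other settings 109 kept both, 5 newly passed and 2 turned sign, and the levels in CPM moved by less than 1 SD with library size alone. The results that changed side were LHCA2 and LHCA3 under drought. With DESeq2 LHCA3 passed in wild type (0.38) and LHCA2 and LHCA3 in idr1-1 (0.49 and 0.47). With library size alone both passed in idr1-1 (0.42 and 0.42), beside 3346 of all 22833 genes called as higher. With a library left out the ranges in wild type were -0.15 to 0.09 for LHCA1, 0.23 to 0.43 for LHCA2 and 0.26 to 0.48 for LHCA3, and in idr1-1 0.36 to 0.66 for LHCA2, 0.39 to 0.60 for LHCA3 and -0.01 to 0.15 for LHCA4. Between genotypes in control LHCA2 and LHCA4 turned to -0.01 and -0.05 with library size alone, and ranged from -0.02 to 0.17 and from -0.09 to 0.11 with a library left out. The difference of responses of LHCA3 ranged from -0.01 to 0.21. The cause was not tested, except that fewer libraries change the shared estimate of the spread. Correlations of LHCA1 with LHCA2 and LHCA3 went from 0.72 and 0.67 to 0.94 and 0.92, and those of LHCA4 with LHCA2 and LHCA3 from 0.45 and 0.40 to 0.90 and 0.96, once group means were taken off.

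Counts of all genes called moved more. Between genotypes in control, 2391 genes (1266 up, 1125 down) became 1437 with library size alone (599 up, 838 down), 3822 in the fit of both groups alone, 1112 with the replicate block, and 207 to 4557 with a library left out. Under drought, 42 genes (10 up, 32 down) became 18 with library size alone (2 up, 16 down), 79 without a filter (29 up, 50 down), 544 with DESeq2 (276 up, 268 down), 3 in the fit of both groups alone (0 up), 14 with the block (3 up, 11 down) and 9 to 1074 with a library left out. The lean to lower turned without idr1-1 drought replicate 2 (397 up, 109 down). For the difference of responses, 11 genes (3 up, 8 down) became 2 (1 up, 1 down), 82 (58 up, 24 down) and 694 (426 up, 268 down) under library size alone, no filter and DESeq2, and 0 to 582 with a library left out, so the majority direction is not stable. Without idr1-1 drought replicate 2 it was 490 up and 92 down, and without idr1-1 control replicate 2 157 up and 84 down. With the block edgeR called 0 there (3032 at an unadjusted p under 0.05).

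Same-numbered libraries did not deviate together: 4 of 18 pairs had a correlation over 0.1 (range -0.35 to 0.26), and 1 of 12 libraries was closest to its own number, so the numbers are not read as pairs. With the replicate block 0 of 4 LHCA loci passed in any comparison (lowest adjusted p = 0.14; LHCA3 0.40 in wild type and 0.46 in idr1-1). The alternative per kb of coding length was not run, since no length of the members was used here.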
